A study of Bos taurus with 6 samples.

Results

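The IL6 family of cytokines, its receptors, the transcription factor STAT3 and the STAT3 feedback inhibitor SOCS3 were examined in micromass cultures of bovine articular chondrocytes. The family was taken as 10 genes, listed by symbol with the differences between TGF-β and untreated arrays already known, and every probe set annotated with 1 of these symbols was used. This gave 13 of the 24016 probe sets tested, for 7 of the 10 genes, out of 9174 named genes on the array. IL6 and LIF had 1 probe set each, IL6R, STAT3 and SOCS3 had 2 each, and OSMR had 4. IL11RA had 1 probe set, which is named by the study's own list of regulated genes and not by the array annotation. No probe set was matched to IL11, IL6ST or LIFR, and these were not analysed here.

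The treated cultures received TGF-β1 at 5 ng/ml during 8 hours, and the control cultures were left untreated (vehicle, per the treatment protocol). Both were chondrocytes released by collagenase from full-thickness cartilage of bovine metacarpal-phalangeal joints from an abattoir, and plated at high density overnight before treatment. There were 3 Affymetrix Bovine Genome arrays per group, numbered 1 to 3, and the study grew cartilage cells of 3 separate cows with and without TGF-β. The labels do not give the age or sex of the animals, nor do they say that a number stands for a cow.

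Cytokines of the IL6 family share the signalling receptor gp130, the product of IL6ST. IL6 and IL11 first bind a receptor of their own, encoded by IL6R and IL11RA, which then recruits gp130, whereas LIF joins gp130 to the LIF receptor, and oncostatin M joins it to the product of OSMR or to the LIF receptor. The kinases bound to these receptors phosphorylate STAT3, which enters the nucleus and induces, among other genes, SOCS3, whose product blocks the kinases on gp130. In cartilage, IL6 with its soluble receptor and LIF are known for raising the breakdown of proteoglycan.

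Each deposited value is a log2 signal centred on the median of its probe set over the 6 arrays, so a value of 1 means a signal 2-fold above that median. The level of a probe set is lost in this centring, so the signals of different genes cannot be ranked, nor can the presence of chondrocyte markers be checked by level. Deviations from the group mean ran together on arrays of equal number (r = 0.694 to 0.845 across probe sets, against -0.683 to 0.185 for unequal numbers), and the difference between TGF-β and untreated arrays was taken within each number (a pair). In each group the 3 deviations of a probe set cancel, so a positive r for equal numbers lowers the r for unequal numbers. Both replicate 3 arrays stood apart from the others on the first principal component, which held 56.4% of the variance. Over 7 measured markers of cycling cells, the median signal was 1.99 log2 units on the TGF-β array and 2.17 on the untreated array of replicate 3, and between -0.27 and -0.05 on the other 4 arrays. On the TGF-β array of replicate 2 the spike-in controls were bright, with a median of 1.61 log2 units over 16 probe sets, against -0.18 to 0.06 on the other 5 arrays. In cultures of whole RNA, fewer cells of a type and less RNA per cell cannot be told apart.

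Of the 13 probe sets, 5 were higher and 2 lower with TGF-β in every replicate, against 4955 and 4810 of all 24016. On 3 of these 5, those of IL6, LIF and IL11RA, the lowest TGF-β array exceeded the highest untreated array. These 3 passed the adjusted threshold in the paired fit (limma with the replicate number as a term, Benjamini-Hochberg adjusted p under 0.05 over 24016 probe sets), 0 passed it in the lower direction, and 10 did not pass. Before adjustment, 3 were higher and 1 was lower at a p under 0.05, against 8.60% higher and 11.1% lower of all probe sets. Over all probe sets, 5.90% passed (2.44% higher and 3.46% lower), and on 6.11% every TGF-β array was above every untreated one. The genes were chosen on this contrast, by the differences known from these 6 arrays, and IL6 and IL11RA are on the study's list, which was made from these arrays, so the values below describe the members and nothing is read from the counts. The median difference over the 13 probe sets was -0.03 log2 units, against 0.01 over all probe sets, and the median absolute difference was 0.16, against 0.12.

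**Figure D1:**
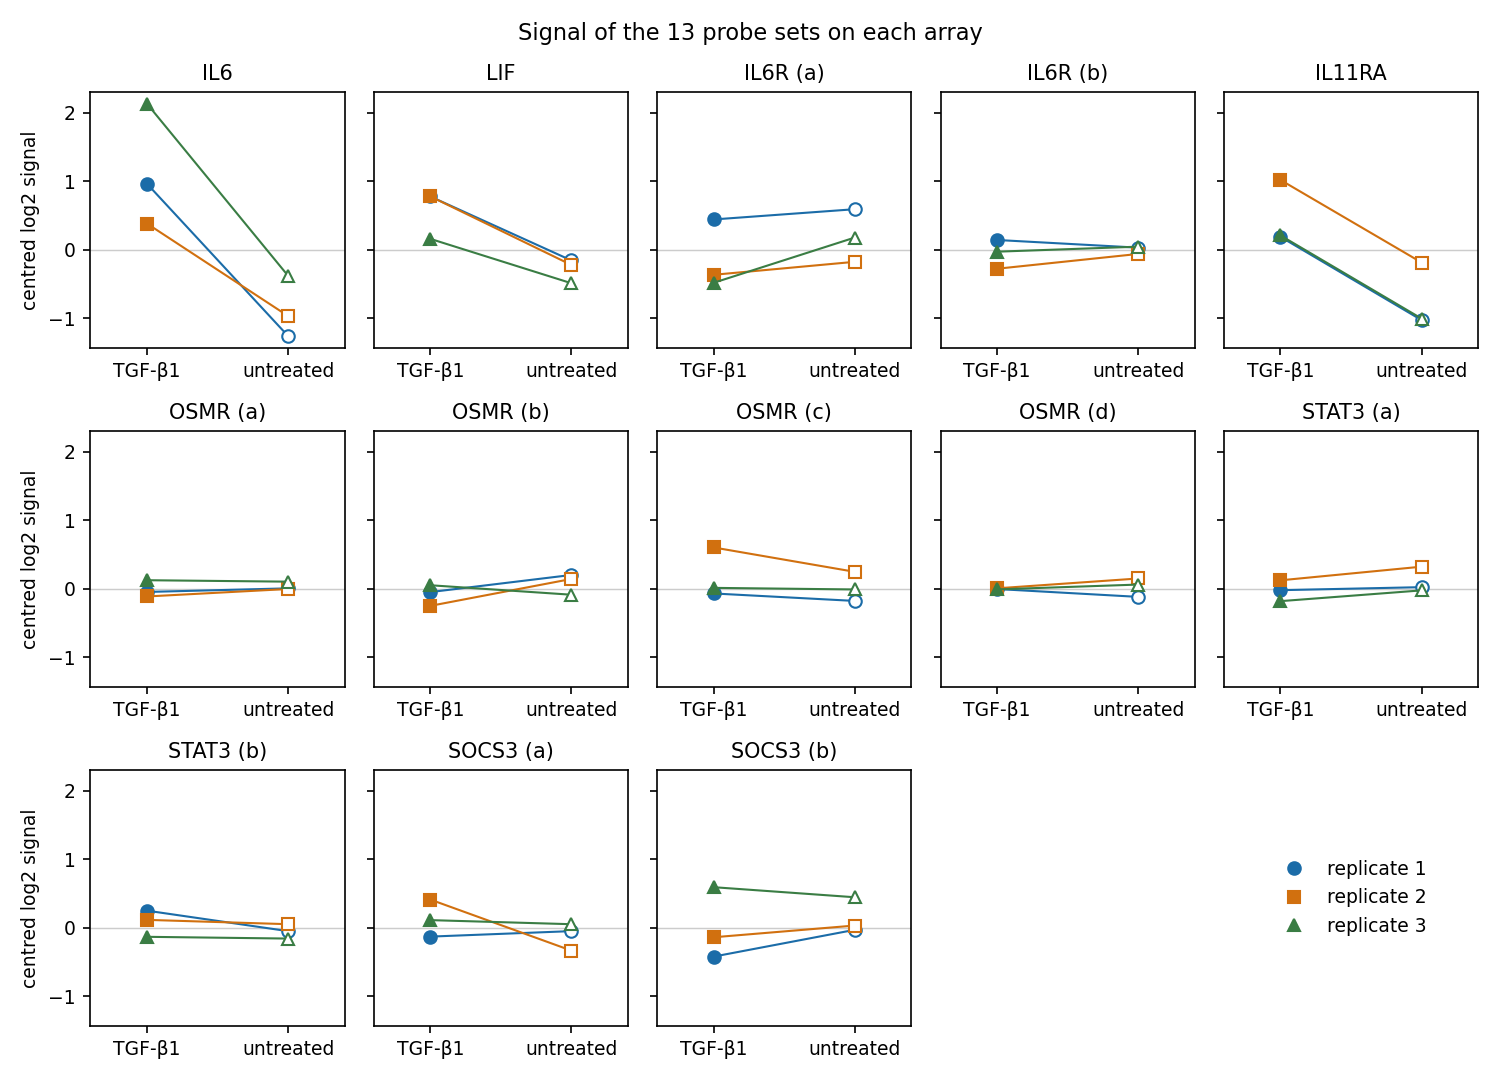
Centred log2 signal (vertical axis) of each of the 13 probe sets on the 3 TGF-β1 arrays (filled) and the 3 untreated arrays (open), with a line for each replicate and the replicate given by colour and shape. In the IL6, LIF and IL11RA panels every TGF-β1 point lies above every untreated point, and in the other 10 panels the groups overlap. Letters mark probe sets of the same gene in the order of the text.

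Among the ligands, IL6, which encodes the founding cytokine of the family, had centred log2 signals of 0.96, 0.38 and 2.13 on TGF-β arrays 1, 2 and 3, against -1.26, -0.97 and -0.38 on untreated arrays 1, 2 and 3. The lowest TGF-β array and the highest untreated array were of different replicates, so the gap between the groups was smaller than the difference within any pair. The differences within pairs were 2.23, 1.35 and 2.52 log2 units, or 4.68-fold, 2.55-fold and 5.72-fold, with a mean of 2.03 (SD 0.61, n = 3 pairs), which is 4.09-fold. Of 24016 probe sets, it had the 20th largest increase. IL6 was thus the member that moved most and also the one whose size of change varied most between replicates. Without replicate 3 the mean difference was 1.79, and without replicate 2 it was 2.37.

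LIF, which encodes leukaemia inhibitory factor, had signals of 0.78, 0.78 and 0.16 on the TGF-β arrays, against -0.16, -0.22 and -0.49 on the untreated arrays. Replicate 3 was lowest in both groups, the reverse of IL6, where it was highest in both. The differences were 0.94, 1.002 and 0.65 log2 units, with a mean of 0.86 (SD 0.19, n = 3 pairs), or 1.82-fold. In each of the 3 pairs the difference was smaller for LIF than for IL6. The mean was 0.97 without replicate 3 and 0.79 without replicate 2. The gene next to LIF in the cattle annotation (ARS-UCD2.0) is OSM, which encodes the family member oncostatin M, and its probe set had a mean difference of 0.02.

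Of the receptors that bind a ligand first, IL11RA was higher with TGF-β, and the probe sets of IL6R were not. The IL11RA probe set got its name only from the study's list of genes regulated on these arrays. Without a change it would not have been a member, so this contrast with IL6R was set by the naming. IL11RA, which encodes the receptor of interleukin 11, had signals of 0.19, 1.02 and 0.21 on the TGF-β arrays, against -1.03, -0.19 and -1.01 on the untreated arrays. Replicate 2 was highest in both groups, and replicates 1 and 3 lay close together in both. The 3 differences were 1.22, 1.21 and 1.22 log2 units, with a mean of 1.21 (SD 0.0055, n = 3 pairs), or 2.32-fold. This SD over pairs was smaller than that of the other 12 member probe sets, and it is far below the standard error of 0.104 that limma gives after drawing the variance toward that of all probe sets. Without replicate 2 the mean was 1.22, and without replicate 3 it was 1.21. GALT, the gene next to IL11RA on 1 side in that annotation, had mean differences of -0.02, -0.14 and -0.14 on its 3 probe sets.

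IL6R, which encodes the receptor that binds IL6, had 2 probe sets. On the first, signals were 0.44, -0.37 and -0.48 on the TGF-β arrays, against 0.59, -0.18 and 0.18 on the untreated arrays, and the groups overlapped. The TGF-β array was the lower in each pair, by 0.15, 0.19 and 0.66 log2 units, with a mean difference of -0.33 (SD 0.28, n = 3 pairs; 95% interval of limma's paired fit -0.63 to -0.04), which did not pass the adjusted threshold. Replicate 3 held the largest of the 3 differences, and without it the mean was -0.17. On the second, the differences were 0.11, -0.22 and -0.07, with a mean of -0.06 (SD 0.16, n = 3 pairs), and the sign was not shared by the pairs.

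OSMR, which encodes the oncostatin M receptor chain that pairs with gp130, had 4 probe sets, and on each the groups overlapped. Those labelled (a) and (b) in the plots had mean differences of -0.05 (SD 0.065) and -0.17 (SD 0.28). That of (b) was -0.06 without replicate 2 and -0.32 without replicate 3, and that of (a) was -0.02 without replicate 2 and -0.08 without replicate 3. Those labelled (c) and (d) had 0.16 (SD 0.17) and -0.03 (SD 0.13), all with n = 3 pairs. Probe set (c) was the only one of the 4 with the same sign in each pair, with differences of 0.11, 0.36 and 0.02. Its largest difference was in replicate 2, whose TGF-β array had the bright spike-ins, and its mean without that replicate was 0.07. The part of the spike-ins in this value was not tested.

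STAT3, the transcription factor that carries the signal of the family, had 2 probe sets with mean differences of similar size and opposite sign. The first had signals of -0.02, 0.12 and -0.18 with TGF-β, against 0.02, 0.32 and -0.03 in untreated cultures, and a mean difference of -0.13 (SD 0.080, n = 3 pairs; 95% interval -0.37 to 0.11). The second had signals of 0.25, 0.11 and -0.13, against -0.05, 0.05 and -0.16, and a mean difference of 0.13 (SD 0.15, n = 3 pairs; 95% interval -0.12 to 0.38). Its largest difference was in replicate 1 (0.30), and without that replicate the mean was 0.04. The first was lower and the second higher in every pair, and neither passed the threshold. STAT3 is activated by phosphorylation, which these arrays do not measure.

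SOCS3, the feedback inhibitor, also had 2 probe sets that differed in direction. The first had signals of -0.13, 0.41 and 0.11 on the TGF-β arrays, against -0.05, -0.34 and 0.05 on the untreated arrays. Its differences were -0.08, 0.75 and 0.06 log2 units, with a mean of 0.24 (SD 0.44, n = 3 pairs; 95% interval -0.12 to 0.61). The increase thus stood in replicate 2, whose TGF-β array had the bright spike-ins, and without that replicate the mean difference was -0.01. The part of the spike-ins in this value was not tested either. The second had signals of -0.42, -0.14 and 0.59, against -0.03, 0.03 and 0.44, with a mean difference of -0.14 (SD 0.27, n = 3 pairs; 95% interval -0.43 to 0.15), which was -0.01 without replicate 1 and -0.28 without replicate 3. Neither passed the threshold, and on both the groups overlapped.

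**Figure D2:**
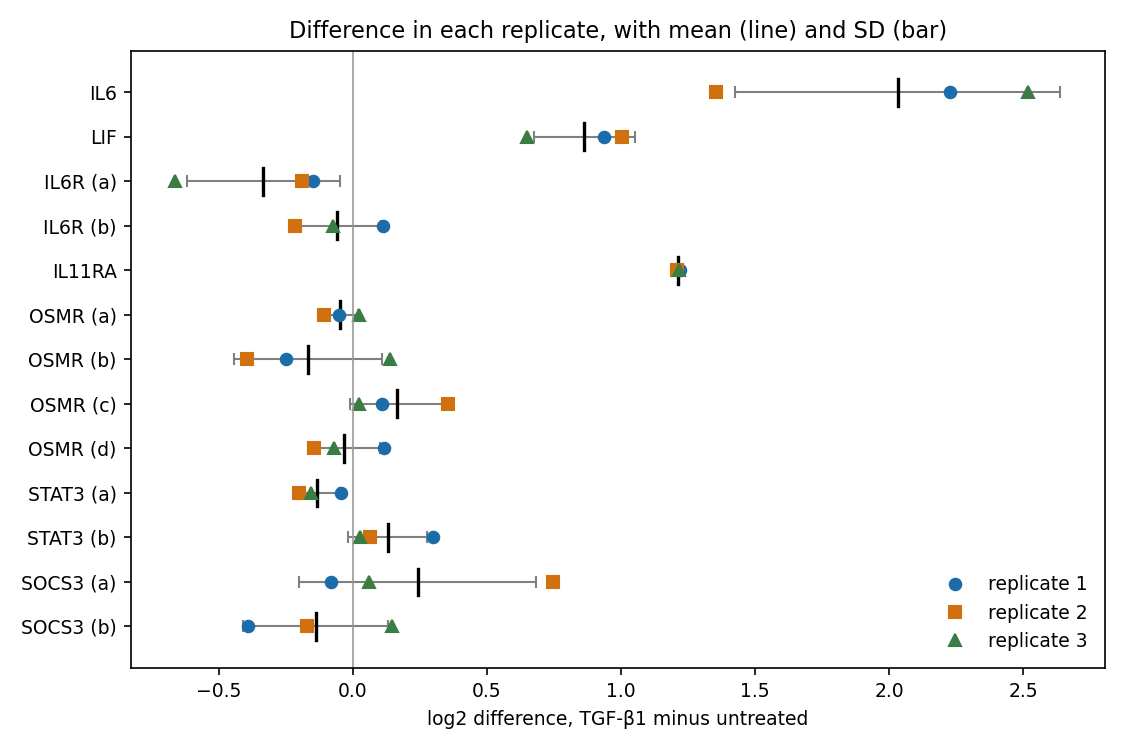
Log2 difference, TGF-β1 minus untreated (horizontal axis), of each of the 13 probe sets in replicates 1 to 3 as points, where the line gives the mean and the bar the SD over the 3 pairs. The points of IL6 run between 1.35 and 2.52, those of LIF between 0.65 and 1.002 and those of IL11RA between 1.21 and 1.22, while the means of the other 10 probe sets lie between -0.33 and 0.24.

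The calls of IL6, LIF and IL11RA rest on the pairing by number. Without the replicate term, limma's adjusted p was 0.483 for IL6, 0.506 for LIF and 0.566 for IL11RA, with unadjusted p = 0.00443, 0.00522 and 0.00883, and 0 of all 24016 probe sets passed. An exact permutation test of 3 arrays against 3 cannot give a 2-sided p below 0.1, and one that flips 3 pairs cannot go below 0.25.

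Differences between the replicates, averaged over the TGF-β and the untreated array of each number, were not used to choose the genes and were tested with the replicate term of the same fit (limma's moderated F test). Of the 13 probe sets, 5 passed, against 27.5% of all probe sets. IL6 had replicate means of -0.15, -0.29 and 0.88 log2 units in replicates 1, 2 and 3 (adjusted p = 0.0120), and the second SOCS3 probe set had -0.23, -0.05 and 0.52 (adjusted p = 0.0156). Both were highest in replicate 3, whose cycling-cell markers were also highest, and the part of these cells in the result was not tested. IL11RA had -0.42, 0.42 and -0.40 (adjusted p = 0.00215) and OSMR probe set (c) had -0.12, 0.42 and 0.00 (adjusted p = 0.0368), both highest in replicate 2. The first IL6R probe set had 0.52, -0.27 and -0.15 (adjusted p = 0.0115) and was highest in replicate 1. The members that differed between replicates therefore did not share a replicate in which they were high. LIF, with 0.31, 0.28 and -0.17, missed the threshold (adjusted p = 0.0534), as did both STAT3 probe sets (0.193 and 0.336). Without replicate 3, the adjusted p was 0.732 for IL6 and 0.571 for the second SOCS3 probe set, and without replicate 2 it was 0.931 for IL11RA and 0.534 for OSMR (c), which also missed the threshold without replicate 1 (0.0872). That of the first IL6R probe set was 0.700 without replicate 1.

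**Figure D3:**
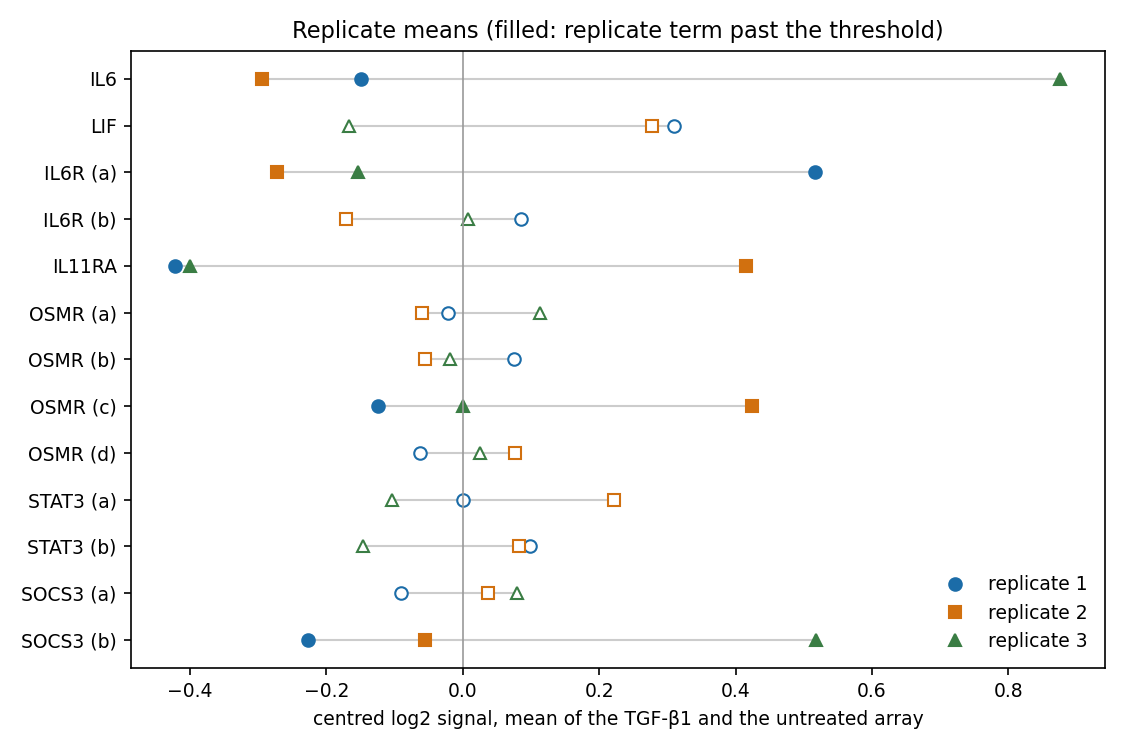
Mean of the TGF-β1 and the untreated array (horizontal axis, centred log2 signal) of each replicate for the 13 probe sets, with filled symbols where the replicate term passed the adjusted threshold. IL6 and SOCS3 (b) are highest in replicate 3, IL11RA and OSMR (c) in replicate 2, and IL6R (a) in replicate 1.

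Other genes of the pathway were taken from a list of 70, made with earlier results of these data known, so the counts below are a description. Of the 70 genes, 41 had a named probe set, 56 probe sets in all. Of these, 7 rose and 3 fell, and the other 46 did not pass, against 2.44% higher and 3.46% lower of all probe sets. The median difference was 0.03 log2 units, against 0.01 over all probe sets. Most of the calls were among known STAT3 target genes, where 6 of 22 probe sets rose and 2 fell, against the same 2.44% and 3.46%. The 6 were of PIM1, JUNB, VEGFA and FOS, the last 2 genes with 2 probe sets each. At an unadjusted p under 0.05 in limma, 6 of the 22 were higher and 5 lower, against 8.60% and 11.1% of all probe sets. In every pair 7 were higher and 8 lower, against 4955 and 4810 of all 24016 probe sets, and the median difference was 0.07. PIM1, which encodes a survival kinase, rose by 1.80 log2 units (SE 0.173, adjusted p = 0.000986), with differences of 2.16, 1.23 and 2.01, and it was the only one of these genes with a change near that of IL6. VEGFA, which encodes an angiogenic growth factor, rose by 1.28 and 1.19 on its 2 probe sets (adjusted p = 0.00232 and 0.00452), and JUNB, which encodes a subunit of the AP-1 factor, rose by 0.79 (adjusted p = 0.00516). FOS, the gene of a further AP-1 subunit, rose by 0.56 and 0.57 on its 2 probe sets (adjusted p = 0.0438 and 0.0303). CCND1, which encodes cyclin D1, fell by 0.51 (adjusted p = 0.0336), and TNFRSF1A, which encodes a receptor of tumour necrosis factor, fell by 0.57 (adjusted p = 0.0260). PIM1 and VEGFA are also on the study's list, and VEGFA and JUNB are known to respond to TGF-β.

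Among the JAK kinases, which act upstream of STAT3, and the other STAT factors, 0 of 6 probe sets passed in limma, against 5.90% of all probe sets, so a count of 0 is near the background. Of the 6, 2 were lower at an unadjusted p under 0.05, against 11.1% of all probe sets (1 of the 6 in limma without the replicate term). JAK1, which encodes a kinase bound to gp130, was the only JAK measured. Each of its TGF-β arrays was below each untreated array, with a mean difference of -0.32 (adjusted p = 0.156, not passed). Such a separation on the lower side was seen on 1180 of 24016 probe sets. STAT6, which encodes the factor activated by interleukin 4, had the smallest p of the 5 STAT probe sets, and its groups did not overlap either (-0.39, adjusted p = 0.201). Its differences were -0.25, -0.07 and -0.86, and without replicate 3 the mean was -0.16.

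Of the other inhibitors, SOCS5 fell by 0.66 log2 units (SE 0.110, adjusted p = 0.0109), with differences of -0.54, -0.81 and -0.64, and 4 further probe sets of SOCS family genes did not pass. Among PIAS proteins and phosphatases, 1 of 7 probe sets rose and 0 fell, against 2.44% and 3.46% of all probe sets. At an unadjusted p under 0.05 in limma, 1 was higher and 2 were lower, against 8.60% and 11.1%. PTPN2, which encodes a phosphatase of JAK and STAT proteins, rose by 0.62 on 1 of its 3 probe sets (adjusted p = 0.0336), while the others had 0.09 and 0.05. The largest difference of the risen probe set, 0.98, was in replicate 2, whose TGF-β array had the bright spike-ins. Their part in it was not tested. The 2 lower ones, named after their values were seen, were PIAS1, which encodes an inhibitor of activated STAT proteins (-0.46, adjusted p = 0.0743), and PTPN6, which encodes the phosphatase SHP-1 (-0.29, adjusted p = 0.194). On both, each TGF-β array was below each untreated array, as on 1180 of all 24016 probe sets. On 2 others of the 7, of PTPN1 (0.20) and PTPN2 (0.09), each TGF-β array was above each untreated array, as on 6.11% of all probe sets. On the risen PTPN2 probe set the groups overlapped.

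The 2 other ligands measured, OSM (0.02) and EBI3 (-0.06), which encodes a subunit of interleukin 27, did not pass. Neither did the 3 probe sets of ADAM10, which encodes a protease that sheds the IL6 receptor, with 0.09 for the one of smallest p. Acute phase genes, the classical targets of IL6 in liver, had 0 of 11 probe sets past limma's threshold, with 1 higher and 1 lower at an unadjusted p under 0.05, and LBP, which encodes the lipopolysaccharide binding protein, had the smallest p (-0.45, adjusted p = 0.105, and -0.26 without replicate 3). These counts are near the background of 5.90% past the threshold and of 8.60% higher and 11.1% lower before adjustment. Of these 11, limma without the replicate term and the test named in the methods, with unequal variances, each put 0 past the threshold and 0 at an unadjusted p under 0.05.

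Several pathway calls did not pass when 1 replicate was left out, which also leaves fewer pairs. SOCS5 did not pass without replicate 2 (adjusted p = 0.0671). Both FOS probe sets did not pass without replicate 1 or 2 (0.101 to 0.238), and PTPN2 did not without replicate 2 (0.141). CCND1 and TNFRSF1A did not pass whichever of the 3 was left out (0.0598 to 0.170). Their mean differences then ran from -0.46 to -0.61 for CCND1 and from -0.46 to -0.65 for TNFRSF1A. The part of the smaller number of pairs in these losses was not tested.

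**Figure D4:**
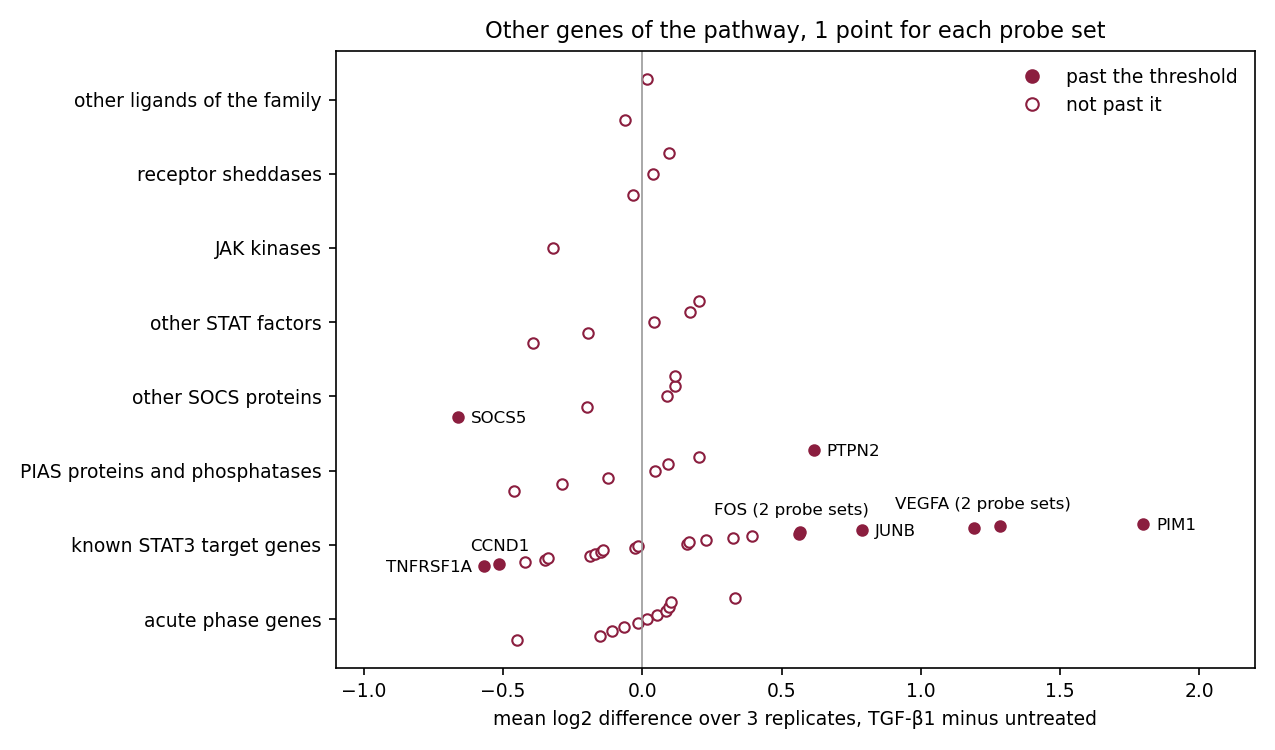
Mean log2 difference over 3 replicates, TGF-β1 minus untreated (horizontal axis), of the 56 probe sets of other pathway genes, by role, with filled points where the adjusted p was under 0.05. PIM1, VEGFA, JUNB, FOS and PTPN2 lie on the higher side, SOCS5, TNFRSF1A and CCND1 on the lower side, and no point of the ligands, sheddases, JAK kinases, STAT factors or acute phase genes is filled.

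The probe sets whose signals lay nearest to those of the 3 higher members were found by the root mean square difference over the 6 arrays, as a description. For IL6 the nearest genes were TNFAIP6, whose product binds hyaluronan (0.30 log2 units), CTTNBP2, which encodes a cortactin-binding protein (0.43), and the parathyroid hormone-related protein gene PTHLH (0.47). For LIF they were the Notch ligand gene JAG1 (0.11), ACSL3, which encodes an enzyme that activates fatty acids (0.14), and DCP1A, which encodes a protein of mRNA decapping (0.14). For IL11RA they were a probe set annotated as TPR, which the study names PRG4 (0.19), the collagen hydroxylase gene PLOD2 (0.19) and LDLRAD4, whose product restrains TGF-β signalling (0.25). The name of CTTNBP2 on this array comes only from the study's list.

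Macrophages are a further source of IL6 in joint tissue, and 5 of 6 macrophage markers were measured. Their median signal ran from -0.05 to 0.06 log2 units on the TGF-β arrays and from -0.04 to 0.20 on the untreated arrays, and 2 of the 5 were higher and 1 was lower with TGF-β in every pair. Whether the cultures held macrophages cannot be read from centred values. Of 8 chondrocyte markers 6 were measured, and the median of their differences was -0.11, -0.06 and -0.10 log2 units in replicates 1, 2 and 3, with 3 lower and 1 higher in every pair. Their median signal ran from -0.33 to 0.55 on the TGF-β arrays and from -0.38 to 0.43 on the untreated arrays. Of 5 markers of synovial or fibrous tissue cells, 2 were higher and 2 lower with TGF-β in every pair, with a median signal from -0.21 to 0.37 on the TGF-β arrays and from -0.59 to 0.18 on the untreated arrays. The part of any of these cells in the values of the members was not tested.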

How the data were processed

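RNA of 6 cultures (3 with TGF-β1, 3 untreated) was measured on Affymetrix Bovine Genome arrays after amplification of the RNA in 2 cycles. The deposited values are log2 signals that the authors made in GeneSpring by Robust Multichip Average (background subtraction, normalization between arrays, probe summary), with every probe set centred so that its median across arrays is 0 (within 5e-07). They were used as deposited, so no filter on dim probe sets was possible. The number of arrays limits the precision. No array was a copy of another (at most 56 identical values between 2 arrays).

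Of 24128 probe sets, 112 array controls were left out. The array annotation gave 1 symbol to 13292 of the rest (13263 updated through their Entrez ID), several to 86, and 24 were named only by the study's list. Sequences were not used here.

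Differences are TGF-β minus untreated, tested 2-sided with limma 3.58.1 (R 4.3.3; lmFit, eBayes, default prior) and Benjamini-Hochberg adjustment at 0.05 over 24016 probe sets, with the replicate number as a term (2 residual degrees of freedom, prior SD 0.144). The fits were tested on simulated data whose noise was drawn as limma assumes. This cannot show how well those assumptions hold on these arrays. The members, the lists, the fit and the rule for named genes (each member; each pathway gene past the threshold or, in a role with none, that of smallest p; the 3 nearest profiles) were chosen with earlier results of these data known. Alternatives were the fit without the replicate term, the unequal-variance test of the methods, median and quantile scaling, means per gene and leaving out each replicate.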

Additional observations from a re-analysis of the deposited data

How the results depend on the processing

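Without the replicate block, and by the methods' t-test with unequal variance, 0 probe sets passed in all, among the members and among the pathway list. At an unadjusted p under 0.05 these tests put 1377 and 1032 probe sets, and 3 members each. In the paired fit the count over all probe sets, 1417, became 820 after quantile normalization and 649 when probe sets were averaged per gene, which tests fewer rows (9174), and lay between 539 and 1337 without 1 replicate. The count of members stayed at 3, the same genes, under median and quantile scaling, means per gene and without any replicate. The pathway count of 10 became 6 after quantile normalization and lay between 4 and 9 without 1 replicate. For the replicate term, the count over all probe sets, 6614, was 2633 without a treatment term and 2078 to 5504 without 1 replicate, and the member count of 5 became 0 without a treatment term and 3 to 4 without 1 replicate. Signs turned for some values that had not passed, up to 0.24 in size. Without 1 replicate, the second IL6R probe set ran from -0.145 to 0.0196, OSMR (d) from -0.107 to 0.0222, the first SOCS3 probe set from -0.0102 to 0.403 and ADAM10 from -0.0041 to 0.147. Averaged per gene, OSMR had -0.0214, STAT3 -0.0021 and SOCS3 0.0517. FOS (first probe set, adjusted p = 0.0538) lost its call under median scaling, and both FOS probe sets, PTPN2 and CCND1 lost theirs after quantile normalization (0.0624 to 0.187). PTPN2 also lost it as a mean over its probe sets (0.147). The causes were not tested.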

Other observations

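Genes of the pathway list also differed between replicates. In limma, the replicate term passed in 23 of 56 probe sets, against 27.5% of all probe sets. LBP, which encodes the lipopolysaccharide binding protein, had replicate means of -1.78, 0.50 and 0.03 log2 units in replicates 1, 2 and 3, and SAA3, which encodes a serum amyloid protein, had -1.21, 0.00 and 0.69. CEBPD, which encodes a transcription factor induced by IL6, had -0.48, 0.00 and 1.46 on the probe set with the widest spread, and SOCS2, a further feedback inhibitor, had 0.00, -0.45 and 1.79. LBP and SAA3 were thus lowest in replicate 1, and CEBPD and SOCS2 highest in replicate 3. These 4 were picked after their values were seen.

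The 3 differences of IL11RA were closer to one another than those of nearly all other probe sets. Its SD of 0.0055 was the 17th smallest of 24016. Among 287 probe sets with a mean difference of at least 1 log2 unit in either direction, no other had an SD as small. The limit was the SD of IL11RA itself, and this trait was picked after its values were seen. The median SD of those 287 was 0.38. With 3 pairs such closeness can occur by chance, and its frequency was not tested.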
